A study of Mus musculus with 18 samples.

Results

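The genes described here are 43 genes of G2 and mitosis, which carry a cell from the end of DNA replication through chromosome segregation to the splitting of the cytoplasm. They are a fixed list of symbols, matched by Ensembl identifier to the 49671 gene models of the files. All 43 were found, and all 43 are among the 14080 models that passed the filter on low counts and were tested. The lowest count of any of them in any library was 18, for Cdc25c. By role, 10 act in G2 and at entry into mitosis, 8 in the spindle checkpoint and the onset of anaphase, and 11 at the kinetochore or in the chromosomal passenger complex. A further 6 drive or build the spindle, 6 act in cytokinesis and 2 are the core subunits of condensin.

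RNA was sequenced from CD8+ and CD4+ T cells sorted by flow cytometry from B16f10-OVA melanomas, a mouse tumor line that carries ovalbumin, 12 days after injection under the skin of B6 mice. All mice carried a floxed miR-155 gene. The "treated deficient" mice also carried CD4-Cre, whose promoter drives deletion in developing T cells of both lineages, and were given antibodies to CTLA-4 and to PD-1/PD-L1, which restrain T cells, on days 3, 6 and 9. The "deficient" mice carried the same Cre and received no antibody, and the "floxed" mice had neither Cre nor antibody. Each of the 6 groups (3 per cell type) had 3 libraries, and each library pooled the sorted cells of 2 to 3 tumors. The labels give 250 ul at 1, 1 and 0.4 mg/ml, and do not say whether this is per antibody or per day. Floxed mice with antibodies were not analysed here, so the antibody comparison was made in deficient cells alone. The p-values measure the spread between pooled libraries, which may be technical, and whether animals are shared between the pools of different groups is not given.

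The cyclin-dependent kinase Cdk1, with A- and B-type cyclins, drives a cell into mitosis. At anaphase the B-type cyclins are destroyed through the anaphase-promoting complex with Cdc20, which the spindle checkpoint holds back until every kinetochore is attached. Transcripts of these genes are low in resting T cells and accumulate late in the cell cycle, so that their bulk level follows how many cells are in division. Their late timing is known to rest on the MuvB complex, which represses them with the DREAM proteins in resting cells and activates them with B-MYB and FOXM1, at a promoter element called the CHR, often beside CCAAT boxes bound by NF-Y.

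The promoter element was looked for in the genes' own sequence, because late cell-cycle genes are known for it. RefSeq promoter windows of GRCm38.p6, from 250 bases before to 50 after the start of transcription, were given for 35 of the 43 genes. The letters TTTGAA or TTCGAA (the CHR type), on either strand, stood in 28 of these 35 windows (80%), against 16.7% of 10103 tested genes with a window and 19.2% of all 32851 windows. CCAAT, on either strand, stood in 28 of 35 (80%), against 43% of tested genes, and 19 of 35 (54.3%) held at least 2, against 16.6%. Both motifs stood together in 25 of 35 (71.4%), against 7.0% of tested genes. Of 29 genes of G1 to S phase and replication with a window, 5 (17.2%) held the CHR type and 19 (65.5%) a CCAAT. Among the 35 genes, both motifs stood in 71.0% of the 31 lower in deficient CD8 cells and in 75.0% of the 4 not called there. The CHR type and the CCAAT box can share an end base, and a match is a description of the letters only. The stretches below show 3 genes with both motifs that fell in deficient CD8 cells (Ccnb2, Cdk1 and Cdc20), the gene Bub3 with both motifs that was not called there, and Birc5, which fell and whose window holds neither. Each runs 5′ to 3′ on the strand of the gene around its start, and capitals mark the motifs (in Cdk1 the CCAAT box, and in Bub3 the CHR type, is read on the other strand).
Ccnb2 (chr9:70421525-70421674, minus strand): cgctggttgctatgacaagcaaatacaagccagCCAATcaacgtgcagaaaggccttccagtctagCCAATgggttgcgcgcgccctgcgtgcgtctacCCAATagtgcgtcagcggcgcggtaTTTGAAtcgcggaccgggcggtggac
Cdk1 (chr10:69352883-69353032, minus strand): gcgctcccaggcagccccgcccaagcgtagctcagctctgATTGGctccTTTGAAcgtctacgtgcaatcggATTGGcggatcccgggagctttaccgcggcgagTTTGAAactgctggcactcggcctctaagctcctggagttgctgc
Cdc20 (chr4:118437314-118437463, minus strand): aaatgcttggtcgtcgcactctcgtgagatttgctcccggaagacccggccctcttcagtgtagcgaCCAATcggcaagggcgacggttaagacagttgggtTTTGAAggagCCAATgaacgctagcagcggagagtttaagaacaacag
Bub3 (chr7:131560250-131560399, plus strand): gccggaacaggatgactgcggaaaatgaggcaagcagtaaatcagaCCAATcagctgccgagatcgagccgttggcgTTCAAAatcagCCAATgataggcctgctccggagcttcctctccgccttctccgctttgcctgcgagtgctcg
Birc5 (chr11:117849117-117849266, plus strand): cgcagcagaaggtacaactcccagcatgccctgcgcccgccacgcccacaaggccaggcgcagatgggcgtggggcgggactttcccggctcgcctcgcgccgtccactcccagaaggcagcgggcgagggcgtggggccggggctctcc

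**Figure D1:**
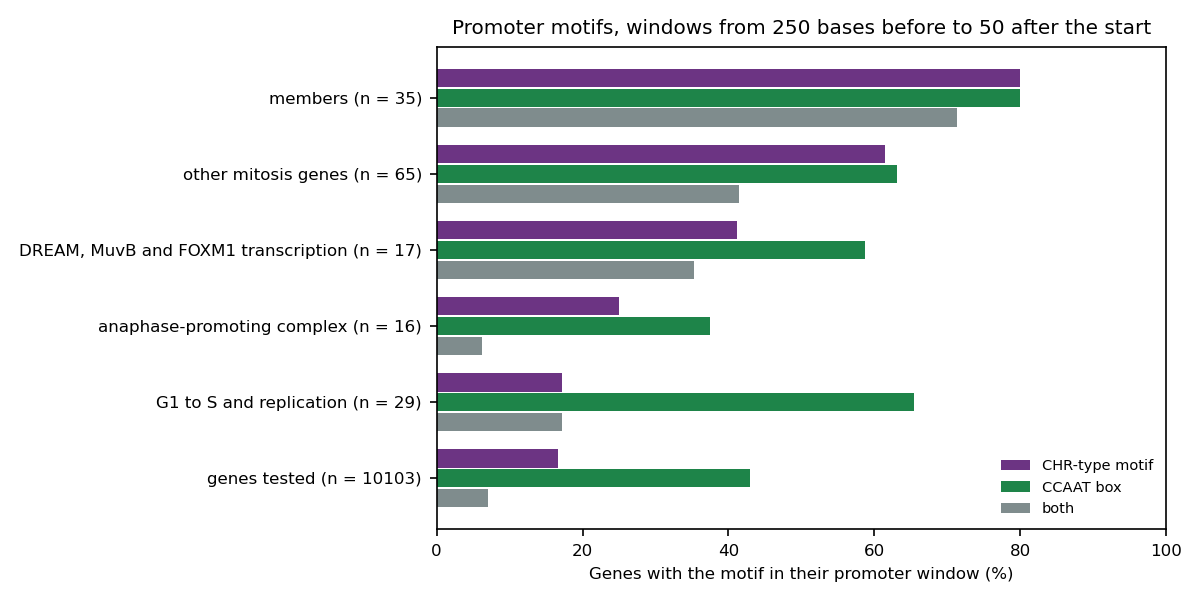
Percent of genes whose promoter window (250 bases before to 50 after the start) holds a CHR-type motif, a CCAAT box or both, for the 35 mitosis genes with a window, other gene lists and all 10103 tested genes with a window. The mitosis genes stand at 80% for either motif, and tested genes at 16.7% and 43%.

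Matches to the seed of the deleted microRNA were looked for as well. Mature miR-155-5p (RefSeq, GRCm38.p6, chr16:84714143-84714165, plus strand) is shown with its seed, bases 2 to 8, in capitals, beside the sites that match it in the longest annotated 3′ UTR of each gene.
miR-155-5p: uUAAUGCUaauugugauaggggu
Cdk1 site (chr10:69336214-69336242, minus strand): taaagggttacAGCATTAggagggttgac
Mad2l1 site A (chr6:66545149-66545177, plus strand): gagagaaattcAGCATTAgctattacata
Mad2l1 site B (chr6:66546482-66546510, plus strand): acattttaacaAGCATTAttataggtttt
Capitals in the sites mark AGCATTA, the complement of the seed, and GCATTAA was searched as well. Of the 43 genes 2 (4.7%) held a match, namely Cdk1 and Mad2l1, against 1709 of 12102 tested genes with a 3′ UTR (14.1%). The median UTR was 809 bases long among the 43 genes and 1178 among the tested genes. The Cdk1 site lies outside the Cdk1 model that was counted (69336635 to 69352938). Mad2l1, which carries 2 matches, was lower in deficient CD8 cells (log2 fold change -0.59 ± 0.13, adjusted p = 0.00326, edgeR).

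Total counts ran from 3198435 to 11645432 per library, and ribosomal-like models took more than 5% of them in 3 libraries (treated CD8 replicate 2, 25.6%; deficient CD4 replicate 3, 11.8%; floxed CD8 replicate 1, 5.82%). Mir155hg, the host transcript of miR-155 on chromosome 16, had 4, 1 and 5 counts in treated deficient CD8 libraries, 2, 7 and 12 in deficient ones and 144, 196 and 51 in floxed ones. Treated deficient CD4 libraries had 1, 0 and 2 counts, deficient CD4 libraries 5, 0 and 2, and floxed CD4 libraries 29, 60 and 27, and a 0 here leaves room for up to 3 counts. Cd4 was at 0 to 3.14 CPM in the CD8 libraries and 233 to 1091 CPM in the CD4 libraries. Cd8a was at 976, 978 and 1168 CPM in treated deficient, 691, 728 and 624 in deficient and 1321, 1449 and 1145 in floxed CD8 libraries, at 0.136 to 17.5 CPM in both deficient CD4 groups, and 14.6, 149.7 and 142 CPM in floxed CD4 libraries. RNA of other cells was present. The 15 melanoma markers summed to 375 to 1784 CPM in treated deficient CD8 libraries, 1446 to 3295 in deficient ones and 166 to 208 in floxed ones. In CD4 libraries they summed to 459 to 2080 CPM in the treated deficient, 1932 to 4539 in the deficient and 165 to 691 in the floxed group. The 20 macrophage and monocyte markers summed to 1311 to 1353 CPM in treated deficient CD8 libraries, 1979 to 3538 in deficient and 995 to 2446 in floxed ones. In CD4 libraries they summed to 3063 to 4819 CPM in the treated deficient, 3375 to 5094 in the deficient and 12639 to 27050 in the floxed group. No marker of either list was at 0 in all libraries of a group.

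All levels are CPM (counts per 1000000, after TMM scaling). Summed over the 43 genes, treated deficient CD8 libraries held 8271, 8159 and 7958 CPM, deficient CD8 libraries 4901, 4698 and 4988 CPM, and floxed CD8 libraries 7506, 9611 and 8485 CPM. The deficient libraries lay below both other groups, with no overlap, and the treated libraries lay inside the range of the floxed ones. Treated deficient CD4 libraries summed to between 5017 and 5723 CPM, deficient CD4 libraries to between 3921 and 4367 CPM, and floxed CD4 libraries to 3100, 4637 and 2788 CPM. In these bulk libraries, fewer dividing cells and less RNA in each of them cannot be told apart. By group means, deficient CD8 cells had the lowest level of the 3 CD8 groups for 41 of the 43 genes, and the highest level was in floxed cells for 29 genes and in treated cells for 14. In CD4 cells the order was another: the treated group had the highest mean for 40 genes and the floxed group the lowest for 36.

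**Figure D2:**
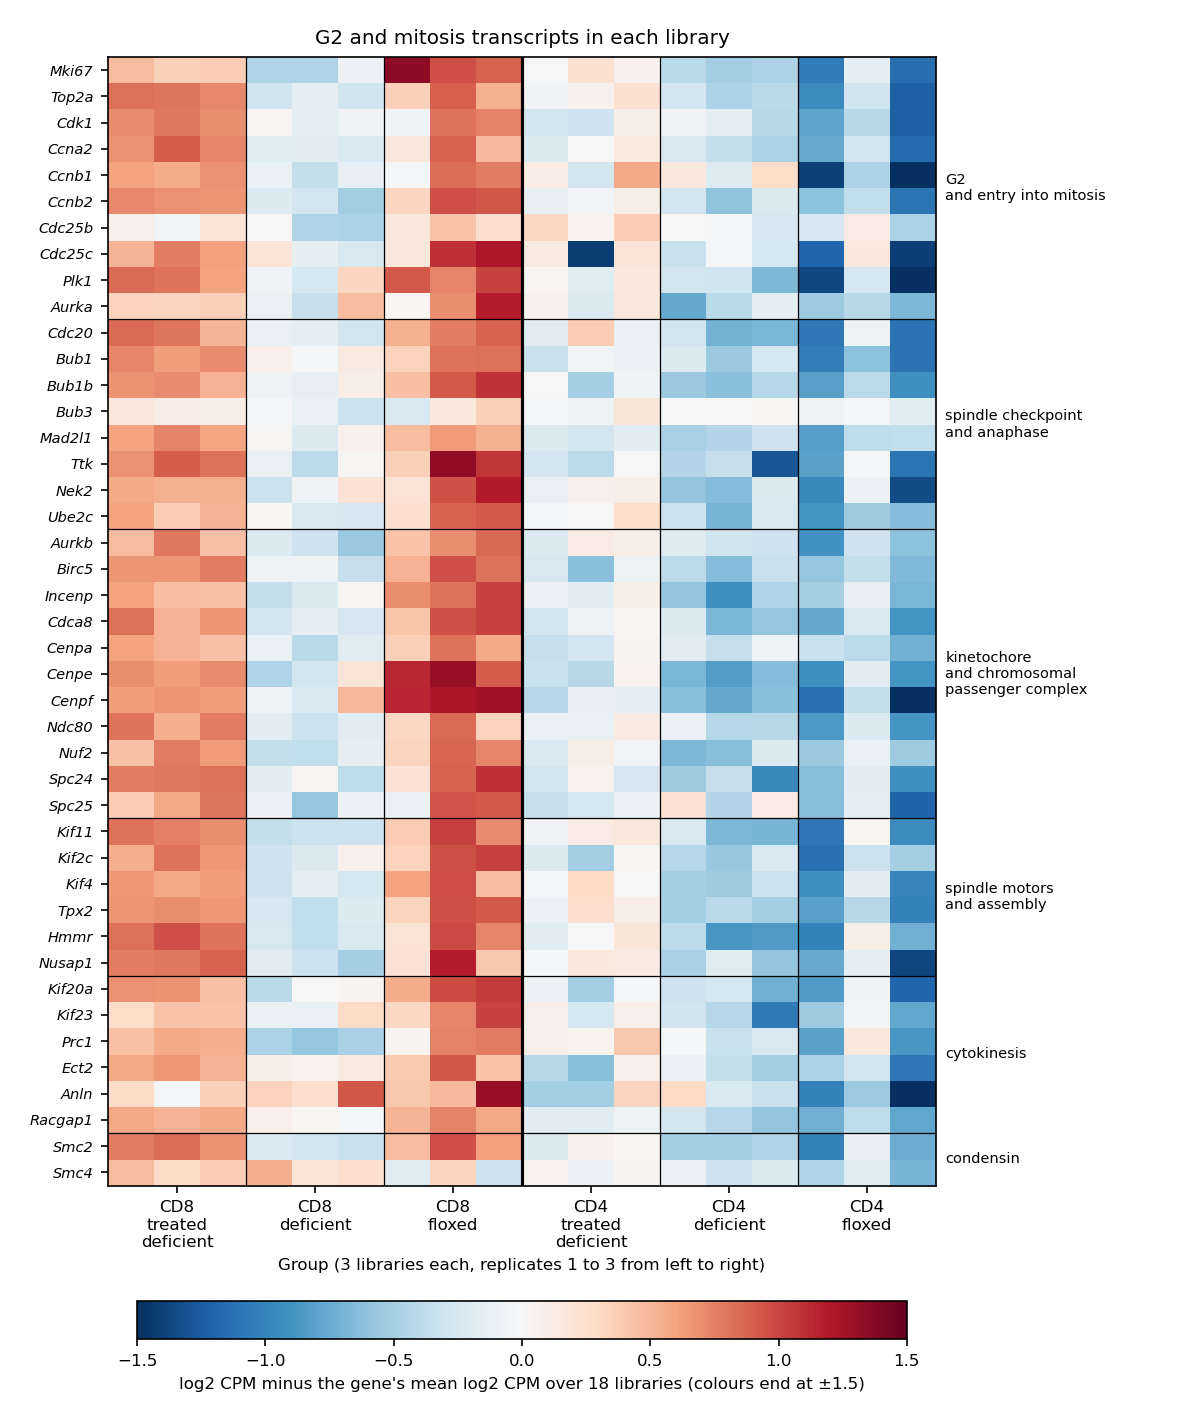
Level of each of the 43 genes (rows, ordered by role) in each of the 18 libraries (columns, by group), as log2 CPM minus the gene's mean over the 18 libraries, from blue (low) to red (high). The deficient CD8 columns are pale to blue where the treated deficient and floxed CD8 columns are red, and the rows of Smc4 and Anln, whose lowest CD8 mean is not in deficient cells, lack this pattern.

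Per length of the gene model, in CPM per kb, the most abundant of the genes in treated deficient CD8 cells was Top2a, the topoisomerase that untangles replicated chromosomes, at 165 CPM per kb, against 80.8 in deficient and 146.5 in floxed CD8 cells. Smc4 stood at 132 CPM per kb in treated deficient, 128.5 in deficient and 99.3 in floxed CD8 cells, and was the most abundant of them in deficient cells. Mki67, which coats mitotic chromosomes and marks cycling cells, stood at 83.0, 50.1 and 132 CPM per kb in the treated deficient, deficient and floxed CD8 groups. At the lower end, the cytokinesis gene Anln stood at 5.62 CPM per kb in treated deficient, 7.05 in deficient and 8.41 in floxed CD8 cells.

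The first comparison asked how CD8 cells without miR-155 differ from floxed ones. Of the 43 genes, 37 were lower and 0 higher in deficient CD8 cells at an adjusted p under 0.05, where 9.61% of all tested genes were lower and 9.65% higher. The median log2 fold change was -0.91 over the 43 genes and -0.01 over all tested genes, and 42 of the 43 values were negative. The second comparison asked how antibody treatment changed deficient CD8 cells. Here 32 genes were higher and 0 lower in treated than in untreated deficient CD8 cells, where 8.25% of all tested genes were higher and 5.53% lower, with a median of 0.81 against -0.03 over all genes. The libraries of the groups did not overlap for 35 genes in the first comparison (16.4% of all tested genes were lower without overlap) and for 38 in the second (22% were higher without overlap). Both comparisons use the same 3 deficient libraries, so a high or low value in these enters both with opposite sign, and their values are given side by side and not related to each other. All adjusted p-values are Benjamini-Hochberg values over all tested genes from the quasi-likelihood test of edgeR, and each ± beside a log2 fold change is its standard error. Counts at an unadjusted p under 0.05 are given below without the share of all tested genes, so they do not show whether a count is unusual.

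**Figure D3:**
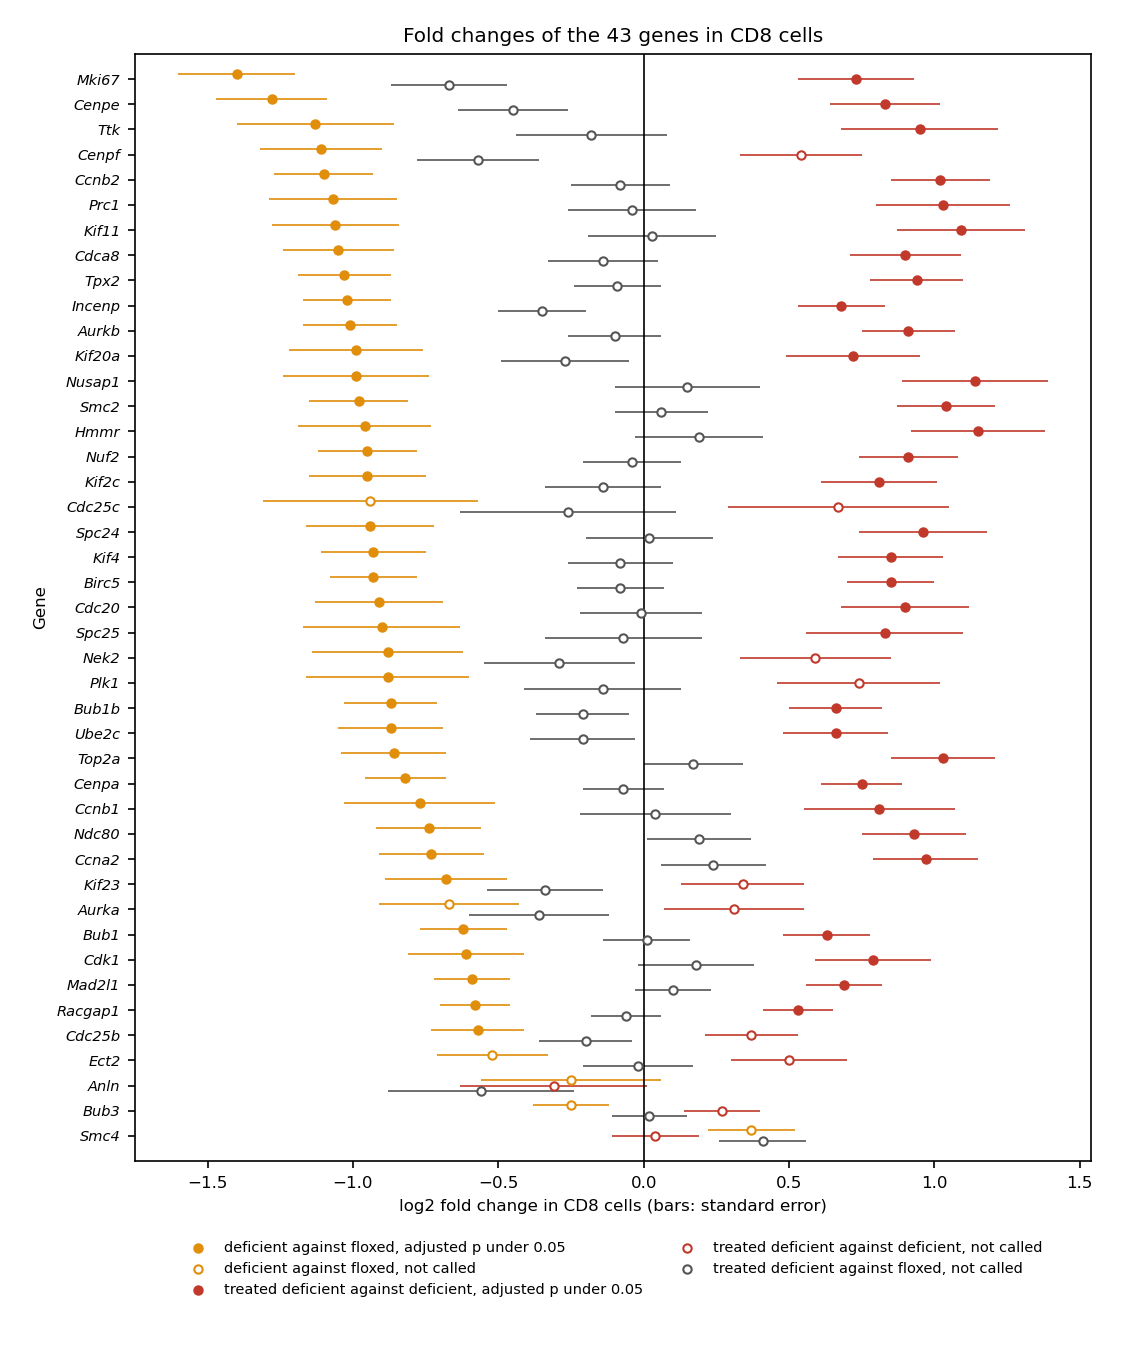
Log2 fold change and standard error of each of the 43 genes in CD8 cells, for deficient against floxed, treated deficient against deficient, and treated deficient against floxed cells, with filled points for adjusted p under 0.05. The deficient against floxed values lie left of 0 but for Smc4 (0.37), the treated against deficient values right of 0 but for Anln (-0.31), and no treated against floxed value is filled.

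Among the genes of G2 and mitotic entry, 8 of 10 were lower in deficient than in floxed CD8 cells and 6 of 10 were higher in treated than in untreated deficient CD8 cells. Mki67 stood at 879, 808 and 816 CPM in treated deficient CD8 libraries, at 460.1, 461 and 592 in deficient ones and at 1600.4, 1231 and 1164 in floxed ones. The 3 groups did not overlap, with treated cells between the other two. Its log2 fold change was -1.40 ± 0.20 in deficient against floxed cells (adjusted p = 9.44e-05), the largest fall of the 43 genes, and 0.73 ± 0.20 in treated against untreated deficient cells (adjusted p = 0.0183). Top2a stood at 1534, 1501 and 1427 CPM in treated deficient, at 701, 782 and 702 in deficient and at 1104, 1604 and 1254 in floxed CD8 libraries. For Top2a the treated libraries lay inside the floxed range and the deficient ones below it, with changes of -0.86 ± 0.18 (adjusted p = 0.00178) for the deletion and 1.03 ± 0.18 (adjusted p = 0.000519) for the antibodies.

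The kinase Cdk1 and its cyclins moved the same way by smaller or similar steps. Ccnb2, a B-type cyclin, stood at 151, 147 and 145 CPM in treated deficient, 79.3, 74.8 and 63.8 in deficient and 114, 179 and 175 in floxed CD8 libraries. Its deficient libraries lay below all the others, with changes of -1.10 ± 0.17 (adjusted p = 0.000186) for the deletion and 1.02 ± 0.17 (adjusted p = 0.000509) for the antibodies. Ccnb1, the other B-type cyclin measured, stood at 39.7, 38.5 and 42.1 CPM in treated deficient, 24.3, 20.4 and 24 in deficient and 25.9, 46.9 and 44.5 in floxed CD8 libraries. Floxed replicate 1 reached only just above the deficient libraries, and the changes were -0.77 ± 0.26 (adjusted p = 0.0424) and 0.81 ± 0.26 (adjusted p = 0.0441). Cdk1 itself stood at 162, 171 and 159.8 CPM in treated deficient, 101, 89.1 and 95.0 in deficient and 95.4, 173 and 165 in floxed CD8 libraries. Here floxed replicate 1 lay inside the deficient range, with changes of -0.61 ± 0.20 (adjusted p = 0.037) and 0.79 ± 0.20 (adjusted p = 0.0116). Ccna2, the A-type cyclin of S phase and G2, changed by -0.73 ± 0.18 and 0.97 ± 0.18 (adjusted p = 0.00724 and 0.00121).

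The kinases and phosphatases that switch Cdk1 on were less uniform. Plk1, a polo-like kinase, stood at 35.1, 34.4 and 29.7 CPM in treated deficient, 18.7, 16.2 and 24.4 in deficient and 36.9, 32.5 and 39.5 in floxed CD8 libraries. It was lower in deficient cells (-0.88 ± 0.28, adjusted p = 0.0302), while its value for the antibodies, 0.74 ± 0.28, did not pass (adjusted p = 0.0832). The phosphatase Cdc25b was lower in deficient cells (-0.57 ± 0.16, adjusted p = 0.0146), with 0.37 ± 0.16 for the antibodies (adjusted p = 0.13). Neither comparison passed for the phosphatase Cdc25c (-0.94 ± 0.37 and 0.67 ± 0.38, adjusted p = 0.0865 and 0.26) or the centrosome kinase Aurka (-0.67 ± 0.24 and 0.31 ± 0.24, adjusted p = 0.0566 and 0.445). Aurka spread widely within groups, at 29.0, 24.8 and 43.5 CPM in deficient and 32.1, 50.8 and 71.2 CPM in floxed CD8 libraries.

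Of the 8 genes of the spindle checkpoint and anaphase onset, 7 were lower in deficient CD8 cells and 6 were higher with antibodies. Cdc20, the activator of the anaphase-promoting complex whose promoter is shown above, stood at 95.2, 91.9 and 75.3 CPM in treated deficient, 49.3, 48.1 and 43.3 in deficient and 76.8, 90.0 and 97.7 in floxed CD8 libraries. The deficient libraries lay apart below both other groups (-0.91 ± 0.22, adjusted p = 0.00592, and 0.90 ± 0.22, adjusted p = 0.00894). Ttk, the checkpoint kinase MPS1, had the third largest fall of the 43 genes (-1.13 ± 0.27, adjusted p = 0.00544). The checkpoint kinase Bub1 changed by -0.62 ± 0.15 and 0.63 ± 0.15 (adjusted p = 0.00609 and 0.0074), and Bub1b, the checkpoint protein BUBR1, by -0.87 ± 0.16 and 0.66 ± 0.16 (adjusted p = 0.000897 and 0.00959). Ube2c, the ubiquitin carrier of the anaphase-promoting complex, changed by -0.87 ± 0.18 and 0.66 ± 0.18 (adjusted p = 0.0018 and 0.0172), and Mad2l1, the checkpoint protein MAD2, by 0.69 ± 0.13 with antibodies (adjusted p = 0.00126).

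Bub3, which carries Bub1 and Bub1b to the kinetochore, was the exception among them. It stood at 186, 179 and 178 CPM in treated deficient, 162.5, 155 and 132 in deficient and 140.0, 185 and 212 in floxed CD8 libraries. Deficient and floxed libraries overlapped, and its values were -0.25 ± 0.13 (adjusted p = 0.184) and 0.27 ± 0.13 (adjusted p = 0.183). Within the deficient and the floxed CD4 groups it varied least of the 43 genes, with coefficients of variation of 0.553% and 5.01%.

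All 11 genes of the kinetochore and the chromosomal passenger complex were lower in deficient than in floxed CD8 cells, with log2 fold changes from -1.28 to -0.74, and 10 of 11 were higher with antibodies (0.54 to 0.96 over all 11). Cenpe, the kinesin that carries chromosomes to the spindle equator, stood at 166, 158.5 and 168 CPM in treated deficient, 74.8, 84.8 and 118 in deficient and 225.5, 254 and 193 in floxed CD8 libraries. As for Mki67, the 3 groups did not overlap and treated cells lay in between (-1.28 ± 0.19, adjusted p = 0.000111, and 0.83 ± 0.19, adjusted p = 0.00575). The passenger complex was lower throughout in deficient CD8 cells: its kinase Aurkb by -1.01 ± 0.16 (adjusted p = 0.000192), its subunit Birc5 (survivin) by -0.93 ± 0.15 (adjusted p = 0.000261), and Incenp and Cdca8 by -1.02 and -1.05. With antibodies Aurkb changed by 0.91 ± 0.16 (adjusted p = 0.000731) and Birc5 by 0.85 ± 0.15 (adjusted p = 0.000792). Ndc80, the microtubule hook of the outer kinetochore, changed by -0.74 ± 0.18 and 0.93 ± 0.18 (adjusted p = 0.0068 and 0.0016), and its 3 partners Nuf2, Spc24 and Spc25 by -0.95, -0.94 and -0.90 and by 0.91, 0.96 and 0.83. Cenpa, the histone variant that marks centromeres, changed by -0.82 ± 0.14 and 0.75 ± 0.14 (adjusted p = 0.000479 and 0.00139). Cenpf, a kinetochore protein, was the member not called with antibodies (0.54 ± 0.21, adjusted p = 0.095), after -1.11 ± 0.21 (adjusted p = 0.0011) for the deletion.

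The 6 genes of spindle motors and assembly behaved most alike, and all 6 passed in both comparisons, with log2 fold changes of -1.06 to -0.93 for the deletion and 0.81 to 1.15 for the antibodies. Kif11, the motor that pushes the spindle poles apart, stood at 411, 392.3 and 377 CPM in treated deficient, 181, 186 and 187 in deficient and 302, 473 and 381 in floxed CD8 libraries. The 3 deficient libraries lay close together and below all the others (-1.06 ± 0.22, adjusted p = 0.00294, and 1.09 ± 0.22, adjusted p = 0.00332). Tpx2, which nucleates spindle microtubules, stood at 182, 186 and 181 CPM in treated deficient, 97, 89.4 and 100.1 in deficient and 146, 222.5 and 217 in floxed CD8 libraries (-1.03 ± 0.16, adjusted p = 0.000112, and 0.94 ± 0.16, adjusted p = 0.000386). The spindle proteins Hmmr and Nusap1 had the largest rises with antibodies, at 1.15 ± 0.23 and 1.14 ± 0.25 (adjusted p = 0.00232 and 0.00569). The kinesins Kif2c and Kif4 changed by -0.95 and -0.93 for the deletion and by 0.81 and 0.85 with antibodies.

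Of the 6 cytokinesis genes, 4 were lower in deficient CD8 cells and 3 were higher with antibodies. Prc1, which bundles the microtubules of the spindle midzone, stood at 145, 158.5 and 157 CPM in treated deficient, 77.1, 71.8 and 76.9 in deficient and 110.5, 179.9 and 183.5 in floxed CD8 libraries (-1.07 ± 0.22, adjusted p = 0.00272, and 1.03 ± 0.23, adjusted p = 0.00504). Kif20a, a midzone kinesin, changed by -0.99 ± 0.23 and 0.72 ± 0.23 (adjusted p = 0.00486 and 0.0411), and Racgap1, of the centralspindlin complex, by -0.58 ± 0.12 and 0.53 ± 0.12 (adjusted p = 0.00156 and 0.00496). Kif23, the motor of centralspindlin, was lower in deficient cells (-0.68 ± 0.21, adjusted p = 0.0246) and had 0.34 ± 0.21 with antibodies (adjusted p = 0.296). Ect2, the exchange factor that turns on RhoA at the division plane, passed in neither (-0.52 ± 0.19 and 0.50 ± 0.20, adjusted p = 0.065 and 0.0989), although its deficient libraries lay below the floxed ones. Anln, a scaffold of the contractile ring, stood at 53.5, 43 and 56.3 CPM in treated deficient, 55.9, 52.2 and 83.6 in deficient and 58.3, 61.6 and 109 in floxed CD8 libraries. Its groups overlapped in both comparisons (-0.25 ± 0.31 and -0.31 ± 0.32, adjusted p = 0.64 and 0.574). The start-to-end span of Anln overlaps a predicted gene, Gm48646, on the same strand.

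The 2 core subunits of condensin, the ring that compacts chromosomes, parted. Smc2 stood at 394, 415 and 369 CPM in treated deficient, 198, 190.4 and 185 in deficient and 321.5, 452 and 355.5 in floxed CD8 libraries, so that the deficient libraries lay below both other groups (-0.98 ± 0.17, adjusted p = 0.000371, and 1.04 ± 0.17, adjusted p = 0.000302). Smc4 stood at 732, 645 and 684.5 CPM in treated deficient, 774, 603.5 and 631 in deficient and 465.5, 660.0 and 426 in floxed CD8 libraries. The treated libraries lay inside the deficient range, as did floxed replicate 2, while the other 2 floxed libraries lay below it. Smc4 was the one gene of the 43 with a positive value for the deletion (0.37 ± 0.15, adjusted p = 0.0939). Leaving out floxed CD8 replicate 2 was the only single-library omission that gave a call (0.57, adjusted p = 0.0102). Without deficient CD8 replicate 1 the value was 0.24 (adjusted p = 0.39), and without floxed CD8 replicate 3 it was 0.26 (adjusted p = 0.289). With antibodies the value of Smc4 was 0.04 ± 0.15 (adjusted p = 0.903). The ratio of Smc4 to Smc2 CPM was 1.85, 1.55 and 1.85 in treated deficient, 3.90, 3.17 and 3.42 in deficient and 1.45, 1.46 and 1.20 in floxed CD8 libraries, without overlap between any 2 of the groups. In 3 against 3 libraries the smallest two-sided p of an exact permutation test is 0.10, which is what the log2 ratio gave between each pair of the 3 CD8 groups. Of the 6 other condensin subunits (Ncapd2, Ncapg, Ncaph, Ncapd3, Ncapg2 and Ncaph2, grouped after their values were seen), 5 were lower in deficient CD8 cells (-1.17 to -0.26 over all 6) and 5 higher with antibodies (0.17 to 1.03). From its start to its end, the Smc4 model spans the microRNA genes Mir15b and Mir16-2 on its own strand. Whether they overlap its counted exons was not tested.

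**Figure D4:**
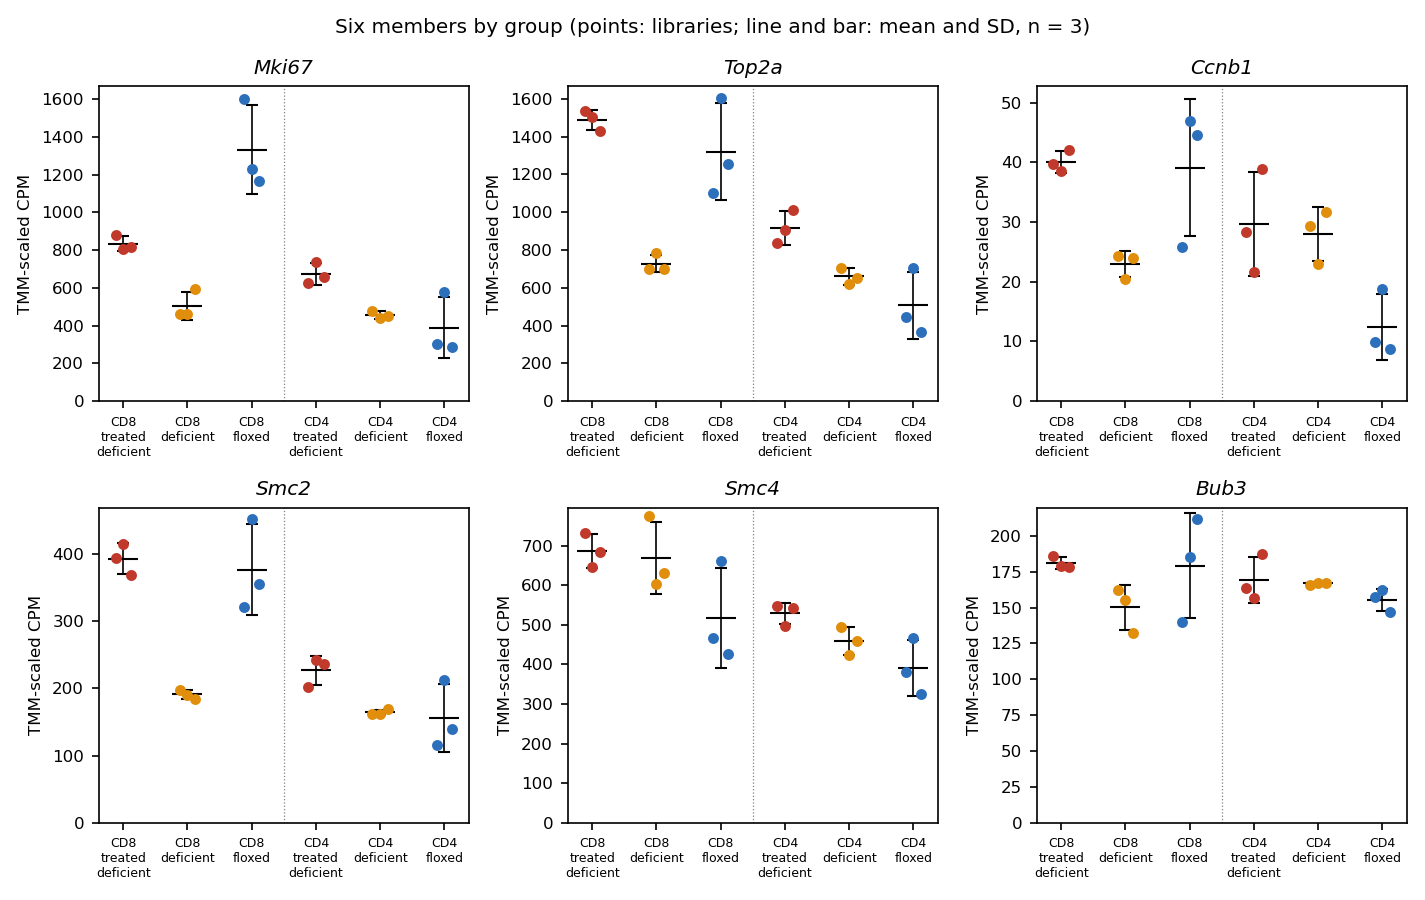
CPM of Mki67, Top2a, Ccnb1, Smc2, Smc4 and Bub3 in each library (points) with the mean and SD of each group (line and bar, n = 3). Smc2 in deficient CD8 cells lies between 185 and 198 CPM, below the other 2 CD8 groups, while Smc4 there lies between 603.5 and 774 CPM.

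The markers of other cells moved with these comparisons. In deficient against floxed CD8 cells 14 of 15 melanoma markers were higher, and their sums did not overlap between the groups, so that genotype and melanoma RNA cannot be told apart here. With the summed melanoma and macrophage levels of each library as covariates, edgeR called 0 of the 43 genes for the deletion (23 at an unadjusted p under 0.05), with a median log2 fold change of -0.78 and 42 negative values, while the median standard error was 0.35 against 0.19 without covariates. With the melanoma level alone 1 gene was called (median -0.85), and with the macrophage level alone 27 were lower and 1, Smc4, was higher (0.68, adjusted p = 0.00417). In treated against untreated deficient CD8 cells all 15 melanoma markers had negative values with 0 called, and 14 of 20 macrophage markers were lower. With both covariates 5 of the 32 genes kept their call (Ccnb2, Aurkb, Birc5, Cenpa and Tpx2), at a median of 0.69, and with either alone 19 did. Cd8a, which encodes a chain of the CD8 receptor, was lowest in deficient CD8 libraries, without overlap with either other CD8 group, as given above. Its values were -0.94 ± 0.62 for the deletion and 0.61 ± 0.62 for the antibodies (adjusted p = 0.339 and 0.576), and its part in the results was not tested. Of 11 T cell markers 2 were lower for the deletion (Cd3e and Cd3g) and 2 higher with antibodies (Cd3d and Cd3g). With antibodies all 11 values were positive (median 0.41), and for the deletion 7 were negative and 4 positive (median -0.11). The T cell markers summed to 5087 to 5276 CPM in treated deficient, 3564 to 3842 in deficient and 3829 to 4799 in floxed CD8 libraries. The treated sums lay above both other groups without overlap, and the part of T cell content in the results was not tested. When each of the 18 libraries was left out in turn, 30 of the 37 genes kept their call each time for the deletion, and Cdk1, Ccnb1, Cdc25b, Plk1, Nek2, Spc25 and Kif23 lost it at least once. For the antibodies 22 of 32 kept it each time, and Mki67, Cdk1, Ccnb1, Cdc20, Bub1b, Ttk, Ube2c, Spc25, Kif2c and Kif20a lost it at least once.

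**Figure D5:**
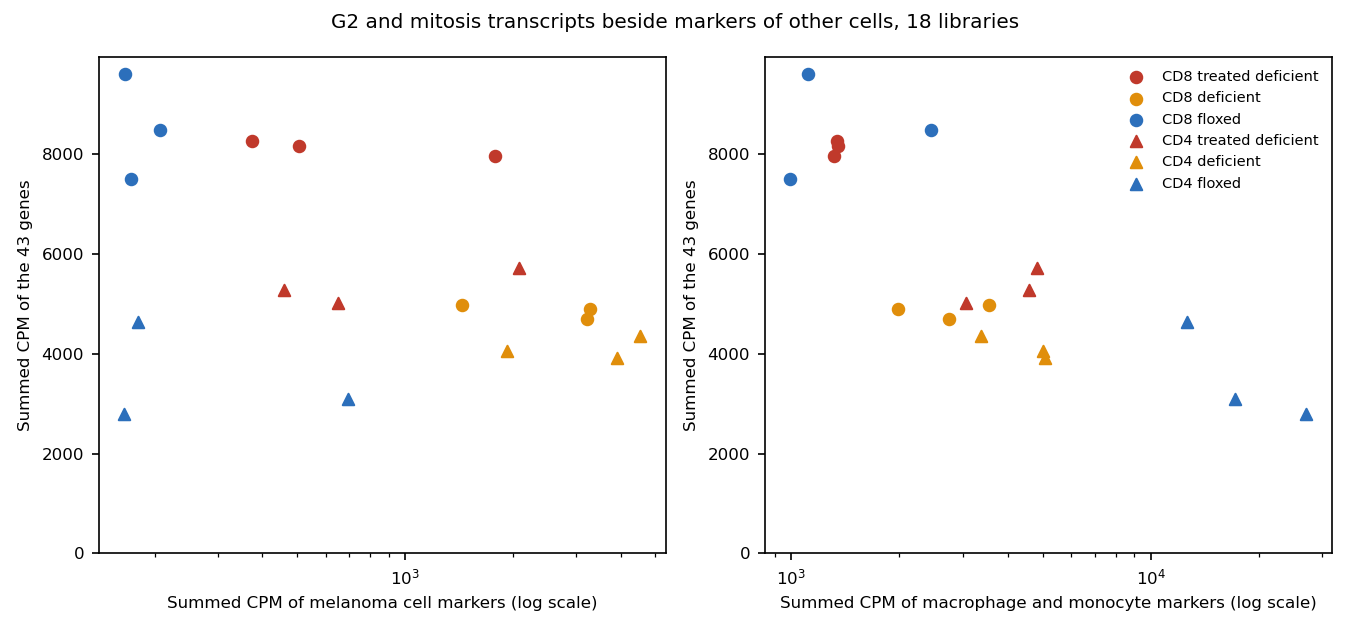
Summed CPM of the 43 genes in each library (vertical) against the summed CPM of melanoma markers (left, log scale) and of macrophage and monocyte markers (right, log scale), by cell type and group. Deficient CD8 libraries (4698 to 4988 CPM) lie below the floxed and treated deficient ones and to the right of the floxed ones in melanoma markers, and floxed CD4 libraries lie farthest right in macrophage markers.

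Treated deficient CD8 cells were then compared with untreated floxed CD8 cells. By edgeR 0 of the 43 genes were called (5 at an unadjusted p under 0.05), where 5.01% of all tested genes were called in either direction, and the median log2 fold change was -0.08 against 0.00 over all genes. DESeq2 and limma voom each called Mki67, at -0.70 and -0.66 (adjusted p = 0.0114 and 0.0442). In edgeR its value was -0.67 ± 0.20 (adjusted p = 0.0528), and all 3 treated libraries lay below all 3 floxed ones. edgeR also called Mki67 with RLE scaling (adjusted p = 0.0466), no filter (0.000246), the filter of 5 CPM in 3 libraries (0.0404) and CD8 cells fitted alone (0.0343). It did not with the replicate block (0.0632) or without the libraries rich in ribosomal RNA (0.432). The main edgeR value moved both ways when a library was left out. It was -0.72 without floxed CD8 replicate 2 (adjusted p = 0.0488) and -0.52 without floxed CD8 replicate 1 (adjusted p = 0.226). With both marker sums as covariates it was -0.45 (adjusted p = 0.306). For 5 of the 43 genes the treated libraries lay below the floxed ones without overlap, a share near the 12.6% of all tested genes. These 5 included Cenpe (-0.45 ± 0.19), Cenpf (-0.57 ± 0.21) and Anln (-0.56 ± 0.32). At the other end stood Smc4 (0.41 ± 0.15, adjusted p = 0.116) and Ccna2 (0.24 ± 0.18). Among single-library omissions, only that of floxed CD8 replicate 2 gave a call for Smc4 (0.63, adjusted p = 0.009). Without floxed CD8 replicate 3 its value was 0.28 (adjusted p = 0.359). For Top2a (0.17 ± 0.17), Kif11 (0.03 ± 0.22) and Ccnb2 (-0.08 ± 0.17) the standard errors leave room for small differences either way. The ratio of Mki67 to Top2a CPM was 0.573, 0.539 and 0.572 in treated deficient, 0.657, 0.590 and 0.843 in deficient and 1.45, 0.768 and 0.928 in floxed CD8 libraries. The treated libraries were lowest, with no overlap against either group (two-sided exact permutation p = 0.10 for each, the smallest this design allows), while deficient and floxed libraries overlapped.

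In CD4 cells the deletion left most of these genes uncalled. Of the 43 genes 2 were higher in deficient than in floxed CD4 cells, a share near the 4.61% of all tested genes. The median was 0.20 against 0.01 over all genes. For 5 genes the deficient libraries lay above the floxed ones without overlap, also a share near that of all tested genes (13.2%). Ccnb1 stood at 29.3, 23 and 31.7 CPM in deficient CD4 libraries, against 9.93, 18.8 and 8.71 CPM in floxed CD4 libraries, without overlap (1.13 ± 0.28, adjusted p = 0.0106). Bub1 stood at 76.0, 59.8 and 73.0 CPM in deficient, against 42.6, 57.2 and 40.8 CPM in floxed CD4 libraries, also without overlap. Anln (0.95 ± 0.33, adjusted p = 0.0745) and Cdk1 (0.57 ± 0.20, adjusted p = 0.0765) came next, and the most negative value was that of Incenp (-0.24 ± 0.16, adjusted p = 0.388). The floxed CD4 group was uneven, since its replicate 2 was highest for 41 of the 43 genes and its replicate 3 lowest for 34. Without floxed CD4 replicate 2, 11 genes were called, and without floxed CD4 replicate 1 or 3 or deficient CD4 replicate 1, 0 were. Macrophage markers were lower in deficient CD4 cells for 17 of 20, and the sums did not overlap. With both marker sums as covariates 0 of the 43 genes were called (0 at an unadjusted p under 0.05) and the median was 0.07. All 11 T cell markers had positive values for the deletion in CD4 cells (median 0.30), and their part in the result was not tested.

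With antibodies, edgeR called 0 of the 43 genes in deficient CD4 cells, where 0.142% of all tested genes were called in either direction. An unadjusted p under 0.05 was reached by 17 genes, and the share of all tested genes at that threshold is not given. DESeq2 called 1 gene (Incenp, 0.61, adjusted p = 0.0307) and limma voom 0. The median was 0.38 against -0.01 over all genes, 41 of the 43 values were positive, and for 24 genes the treated libraries lay above the untreated ones without overlap, where 10.1% of all tested genes did. Mki67 stood at 628, 738.5 and 658 CPM in treated deficient CD4 libraries, against 478, 439.8 and 454 CPM in deficient CD4 libraries. The groups did not overlap, and its value was 0.56 ± 0.20 (adjusted p = 0.285). Hmmr had the largest value (0.70 ± 0.23, adjusted p = 0.252), and Spc25 the lowest (-0.22 ± 0.27, adjusted p = 0.808). All 11 T cell markers also had positive values with antibodies in CD4 cells (median 0.28), and their part in the result was not tested.

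Treated deficient CD4 cells differed more from floxed CD4 cells. Here 17 genes were higher and 0 lower, where 4.08% of all tested genes were higher and 8.08% lower, the median was 0.54 against 0.01 over all genes, and all 43 values were positive. The libraries did not overlap for 19 genes, where 12.3% of all tested genes were higher without overlap. The largest were those of Ccnb1 (1.24 ± 0.27, adjusted p = 0.00516), Plk1 (1.00 ± 0.29, adjusted p = 0.0282) and Top2a (0.85 ± 0.18, adjusted p = 0.00304). Top2a stood at 834, 906 and 1009 CPM in treated deficient CD4 libraries, against 447, 704.5 and 368 CPM in floxed CD4 libraries. By role, 6 of 10 entry genes, 4 of 8 checkpoint genes, 3 of 11 kinetochore and passenger genes, 2 of 6 spindle genes, 1 of 6 cytokinesis genes and 1 of 2 condensin genes were called. The count rested on single libraries: it was 5 without floxed CD4 replicate 1 or replicate 3, 30 without floxed CD4 replicate 2, and 10, 9 and 6 without treated CD4 replicate 1, 2 and 3. Top2a, Ccnb1, Bub1 and Tpx2 kept their call under each of the 18 omissions. Of 20 macrophage markers 18 were lower in treated deficient than in floxed CD4 cells, and with both marker sums as covariates 0 of the 43 genes were called (6 at an unadjusted p under 0.05), at a median of 0.41. Of 11 T cell markers 6 were higher and 0 lower in this comparison, and all 11 values were positive, with a median of 0.54. The T cell markers summed to 4946 to 5633 CPM in treated deficient and 2717 to 4335.5 CPM in floxed CD4 libraries, without overlap. The part of T cell content in the result was not tested.

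The difference of the deletion effect between the cell types was tested directly, as the change in CD8 cells minus that in CD4 cells. It was negative and called for 31 of the 43 genes, where 4.72% of all tested genes were called in this direction, with a median of -1.10 against -0.04 over all genes. The largest differences were those of Ccnb1 (-1.91 ± 0.38, adjusted p = 0.00218), Mki67 (-1.63 ± 0.28, adjusted p = 0.000785) and Plk1 (-1.47 ± 0.41, adjusted p = 0.0209). By role it was called for 7 of 10 entry genes, 5 of 8 checkpoint genes, 10 of 11 kinetochore and passenger genes, 5 of 6 spindle genes, 3 of 6 cytokinesis genes and Smc2 of the condensin pair, with Smc4 at 0.14 ± 0.22 (adjusted p = 0.752). Macrophage markers moved in opposite directions in the 2 cell types, with 8 of 20 higher in deficient CD8 cells and 17 of 20 lower in deficient CD4 cells. With both marker sums as covariates 0 genes were called (16 at an unadjusted p under 0.05) at a median of -0.86, whereas with the melanoma level alone 31 were. For the antibodies, edgeR called no difference between the cell types (0 of 43, with 12 at an unadjusted p under 0.05, where 0.803% of all tested genes were called). DESeq2 called 1 (Cenpa, 0.71, adjusted p = 0.0336), limma voom 0, and the median was 0.47 against 0.00 over all genes.

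By the median over the 43 genes, CD8 and CD4 cells lay farthest apart in floxed mice. In floxed mice 42 of the 43 genes were higher in CD8 than in CD4 cells, where 18.9% of all tested genes were, at a median of 1.31 against 0.04 over all genes. The exception was Bub3 (0.20 ± 0.13, adjusted p = 0.225), and the largest value was that of Cenpf (2.11 ± 0.22, adjusted p = 3.87e-07), which stood at 210.1, 221 and 226.5 CPM in floxed CD8 libraries, against 43.6, 74.1 and 33.1 CPM in floxed CD4 libraries. In deficient mice 6 of 43 were higher in CD8 cells, where 6.21% of all tested genes were, at a median of 0.26 against -0.02. They were Bub1b, Incenp, Cenpe, Cenpf, Racgap1 and Smc4, each of which lost its call when some single library was left out. Mki67, for example, stood at 460.1, 461 and 592 CPM in deficient CD8 libraries, against 478, 439.8 and 454 CPM in deficient CD4 libraries, and Top2a at 701, 782 and 702 CPM against 706, 622 and 651 CPM, so that both pairs of groups overlapped. In treated deficient mice 30 of 43 were higher in CD8 cells, where 9.36% of all tested genes were, at a median of 0.71 against -0.01. Mad2l1 (0.86 ± 0.13, adjusted p = 8.77e-05) and Birc5 (0.99 ± 0.15, adjusted p = 0.000117) had the smallest adjusted p, and Mki67 was not called (0.31 ± 0.20, adjusted p = 0.312). The macrophage marker sums of floxed CD8 libraries (995 to 2446 CPM) and floxed CD4 libraries (12639 to 27050 CPM) did not overlap, and with both marker sums as covariates the counts were 2 in floxed, 0 in deficient and 5 in treated deficient mice.

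Neighbouring parts of the cell cycle were followed through lists that hold none of the 43 genes. The list of further mitosis genes also holds Borcs8, which is not a mitosis gene. Of the 76 tested genes of that list, 49 were lower in deficient CD8 cells (median -0.77) and 34 higher with antibodies (median 0.67). The smallest adjusted p for the deletion were those of Ckap2l, a spindle protein (-1.21 ± 0.15, adjusted p = 2.36e-05), and Ncaph of condensin (-1.17 ± 0.15, adjusted p = 3.43e-05). Of 39 genes of G1 to S phase and replication 25 were lower for the deletion (median -0.67), among them Mcm3 of the replicative helicase (-0.84 ± 0.12), and 28 were higher and 1 lower with antibodies (median 0.65), among them Slbp, which binds histone messages (0.78 ± 0.11). Of 17 core and regulatory genes of the anaphase-promoting complex 4 were lower for the deletion and 2 higher with antibodies (medians -0.12 and 0.19), and of 11 cohesin genes 4 were lower and 1 higher (medians -0.20 and 0.23). Over all tested genes 9.61% were lower for the deletion and 8.25% higher with antibodies, and the few calls with antibodies in these 2 lists lie near that background.

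The regulators of the programme did not all follow it. Of 22 genes of the DREAM, MuvB and FOXM1 circuit 12 were lower in deficient CD8 cells and 6 were higher with antibodies. Foxm1, the activator of G2 genes, averaged 30.3 ± 5.14 CPM in treated deficient, 28.4 ± 8.31 in deficient and 64.0 ± 15 in floxed CD8 cells (SD, n = 3 each). It was lower for the deletion (-1.17 ± 0.28, adjusted p = 0.00558), had 0.12 ± 0.28 with antibodies (adjusted p = 0.834), and was still lower in treated deficient than in floxed cells (-1.06 ± 0.28, adjusted p = 0.0337). Mybl2, which encodes B-MYB, changed by -1.06 ± 0.37 (adjusted p = 0.0493) for the deletion, a call lost under 20 of 29 alternatives, and had 0.55 ± 0.37 with antibodies (adjusted p = 0.358). Of 7 inhibitors of cyclin-dependent kinases 2 were higher and 3 lower for the deletion, with log2 fold changes from -1.76 to 1.26. With antibodies 3 of the 7 were higher and 0 lower (-0.40 to 2.90). Cdkn1b (p27) averaged 172 ± 24.1 CPM in treated deficient, 227.5 ± 48.7 in deficient and 95.1 ± 15.3 in floxed CD8 cells. It was higher in deficient than in floxed cells (1.26 ± 0.19, adjusted p = 0.000124) and higher in treated deficient than in floxed cells (0.86 ± 0.19, adjusted p = 0.0156). In treated deficient against floxed CD8 cells 5.01% of all tested genes were called in either direction, and the few calls in the next 2 lists lie near that share. There 1 of 10 quiescence factors was higher and 0 lower (median -0.12), namely Slfn2 (0.56 ± 0.12, adjusted p = 0.0156). Of the 39 genes of G1 to S phase 1 was higher there, Ccne2, which encodes cyclin E2 (0.89 ± 0.20, adjusted p = 0.0165), and 2 were lower, Ccnd1, which encodes cyclin D1 (-2.50 ± 0.66, adjusted p = 0.0479), and Pole, of DNA polymerase epsilon (-0.68 ± 0.16, adjusted p = 0.02), with a median of -0.01. Ccnd1 and Pole were named after their values were seen. Cdkn1a (p21) passed in neither (-0.46 ± 0.26 for the deletion, -0.04 ± 0.26 for the antibodies). Of 10 factors of T cell quiescence 5 were higher for the deletion and 5 lower with antibodies. The largest were the values of Klf2, which keeps T cells resting, at 1.63 ± 0.24 (adjusted p = 0.000129) and -1.86 ± 0.24 (adjusted p = 7.14e-05).

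In the floxed groups 1 library stood apart for most of the genes. Floxed CD4 replicate 2 was given above, and floxed CD8 replicate 1 was the lowest of its group for 38 of the 43 genes, yet the highest for Mki67, and 5.82% of its counts were ribosomal-like. Treated CD4 replicate 3 was the highest of its group for 29 genes. The treated deficient and deficient CD8 libraries shared the ranks more evenly, with the highest value in replicate 1, 2 and 3 for 18, 16 and 9 genes in the treated and for 15, 6 and 22 genes in the deficient group. The median coefficient of variation over the 43 genes was 5.8% in treated deficient, 10.7% in deficient and 21.9% in floxed CD8 cells, and 11.7%, 12.9% and 27.6% in the same CD4 groups. The widest spread was that of Cdc25c in floxed CD4 cells, at 64.1% (6.39, 16.3 and 5.47 CPM), and the highest in floxed CD8 cells that of Aurka, at 38.1%. On the same strand, models of other genes overlap the start-to-end spans of Top2a, Ndc80, Tpx2, Nusap1, Anln and Smc4. Whether they overlap the counted exons was not tested.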

How the data were processed

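Per the file headers, the authors counted reads per gene with featureCounts 1.5.1 on Ensembl release 87 models with strand option 2, and deposited whole-number counts for each library. The submitters' processing notes name STAR, featureCounts, DESeq2 and GRCm38. Symbols came from a reference annotation and matched 49326 of 49671 identifiers. No column of another sample was used.

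From these counts, 1 edgeR model over the 6 groups (18 libraries, 12 residual degrees of freedom) was fitted with R 4.3.3 and edgeR 4.0.16, using filterByExpr, TMM scaling, robust quasi-likelihood tests and Benjamini-Hochberg adjustment over 14080 genes, with a threshold of 0.05. The fit was tested on simulated data. Total counts per library (3198435 to 11645432) limit precision for the lower genes.

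The members and lists were chosen with earlier results of these data known. A fixed set of 29 central members, the 3 largest and 3 smallest changes per comparison, and a few regulators were named with values. Genes named beyond these were chosen after their values were seen.

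Alternatives were RLE scaling, no filter, a filter of 5 CPM in 3 libraries, DESeq2 1.42.0, limma 3.58.1 voom, a fit of 1 cell type, a replicate block, marker levels as covariates, and leaving out libraries. The single-marker covariates were chosen after seeing the data. Replicate numbers are shared between groups in the labels. Deviations of same-numbered libraries correlated above 0.1 in every pair between CD8 and CD4 cells of deficient mice (0.213, 0.121 and 0.175) and of treated deficient mice (0.149, 0.107 and 0.324). In no other pair of groups did every value exceed 0.1. Some single values did, as between floxed and deficient CD8 cells (0.016, 0.142 and 0.231).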

Additional observations from a re-analysis of the deposited data

Results flagged for a closer look

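The effect of the deletion differed between CD8 and CD4 cells for 31 of the 43 genes, by a contrast of the difference itself in edgeR's quasi-likelihood test (CD8 change minus CD4 change, log2 scale, adjusted p under 0.05), with 4.72% of all tested genes called in this direction. Leaving out each of the 18 libraries in turn, 22 of the 31 kept the call every time.

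Among genes of mitotic entry the differences were -1.63 for Mki67, -1.24 for Top2a, -1.18 for Cdk1, -1.06 for Ccna2, -1.91 for Ccnb1, -1.39 for Ccnb2 and -1.47 for Plk1. Among checkpoint and anaphase genes they were -1.02 for Cdc20, -1.18 for Bub1, -1.02 for Bub1b, -0.68 for Mad2l1 and -1.14 for Ube2c. At the kinetochore and in the passenger complex they were -1.34 for Aurkb, -1.0 for Birc5, -0.78 for Incenp, -1.17 for Cdca8, -1.10 for Cenpa, -1.17 for Cenpe, -1.34 for Cenpf, -1.04 for Ndc80, -0.82 for Nuf2 and -1.46 for Spc25. Spindle genes followed with -1.12 for Kif11, -1.15 for Kif2c, -1.10 for Kif4, -1.28 for Tpx2 and -1.24 for Nusap1. The remaining values were -1.19 for Kif20a, -1.29 for Prc1, -0.77 for Racgap1 and -1.05 for Smc2. With the macrophage marker level as a covariate 0 of the 43 genes were called, and the part of these markers in the difference was not tested further.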

How the results depend on the processing

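With the replicate block, 38 and 2 genes were called for the deletion in CD8 and CD4 cells, and 31 and 0 for the antibodies. For treated deficient against floxed cells the counts were 0 and 18, and for the differences of deletion and antibody effects 32 and 0. For CD8 against CD4 cells they were 42, 5 and 30 in floxed, deficient and treated deficient mice. Each count moved by at most 1. The block gives each replicate number 1 shift over all 6 groups. It does not model a pairing of CD8 and CD4 libraries within deficient or treated deficient mice alone.

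With both marker levels as covariates the counts were 0 and 0 (deletion), 5 (antibodies, CD8), 0 (treated against floxed, CD4), 0 (deletion difference) and 2, 0 and 5 (CD8 against CD4 in floxed, deficient and treated mice). With the melanoma level alone they were 1 and 0 (deletion), 19, 9 and 3 (antibodies in CD8, treated against floxed in CD4, CD8 against CD4 in deficient mice). With the macrophage level alone they were 0 (deletion, CD4), 19 (antibodies, CD8), 2 and 0 (treated against floxed, CD8 and CD4), 0 (deletion difference), and 5, 1 and 5. Values that changed sign with both levels and with the macrophage level alone were those of Cdkn1b for the deletion in CD4 cells (-0.65 and -0.28), and of Cdc25b (-0.40 and -0.47) and Smc4 (-0.80 and -0.79) for CD8 against CD4 cells in floxed mice. The cause was not tested.

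With no filter 4 genes were called for the deletion in CD4 cells, 7 for the antibodies in CD4 cells, 2 for treated against floxed CD8 cells and 2 for the antibody difference. For treated against floxed CD8 cells RLE scaling, the stricter filter, DESeq2, limma voom and the fit of the same cell type each gave 1, and DESeq2 gave 1 for the antibodies in CD4 cells and 1 for the antibody difference. Leaving out 1 library gave 30 to 40 and 0 to 11 (deletion in CD8 and CD4), 23 to 35 and 0 to 0 (antibodies), 0 to 2 and 5 to 30 (treated against floxed), 23 to 39 and 0 to 1 (differences), and 40 to 43, 1 to 8 and 21 to 31 (CD8 against CD4). Low counts limit Cdc25c, whose lowest count was 18.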
